A study of Brassica rapa subsp. pekinensis with 2 samples.

Results

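Flower buds of the Chinese cabbage line AB02 (Brassica rapa subsp. pekinensis) expressed a set of genes in fertile plants that had 0 reads in sterile plants. Their deposited descriptions were empty or did not mention pollen. AB02 is a genic male sterile AB line, whose offspring include both fertile and sterile plants, and its sterility is inherited through multiple alleles. An RNA sequencing library was made from buds of the fertile genotype and another from buds of the sterile genotype. Both came from vernalized, greenhouse-grown plants of the same line, and the plant age and the number of plants per library are not given in the sources used here. With 1 library per group there were no replicates, so no test between the groups was possible.

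The genes were taken from the authors' deposited table of bud-specific genes without a known function, which pairs 82 genes with the locus code of an Arabidopsis thaliana match. Of these 82 genes, 44 had descriptions with the words pollen, male gametophyte or sperm and were left out. Descriptions with the DUF1216 domain were left out too, which removed 0 further genes, as were the genes Bra005946 and Bra028692. The remaining 36 of the 41019 genes in the expression table are described here, 21 with a description and 15 with a locus code alone. The table itself was selected on expression: its genes were chosen by the authors for having reads in 1 kind of bud alone, so the RPKM of 0 in sterile buds defined these genes and is given as a description. In the authors' deposited table of differing genes the 36 had log2 fold changes of fertile over sterile from 5.13 to 10.01, with a highest q-value of 0.000515. The highest q-value of all genes listed there was 0.000999, so a low q-value followed from being listed. For genes at 0 in sterile buds these folds were proportional to fertile reads, and they are not the bounds given below. Among the 27940 genes with RPKM (reads scaled to gene length and library total) of at least 1 in either library, 3.24% were listed there as higher in fertile buds, and 2.43% were at 0 in sterile buds and at or above the lowest of the 36 in fertile buds.

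In the anther, the tapetum feeds the developing microspores, and maturing pollen then builds up a large store of transcripts for its germination and tube growth. Many of these transcripts encode short secreted or membrane proteins of families with no known function. The Brassica lineage went through a genome triplication after it parted from the lineage of Arabidopsis, so that a single Arabidopsis gene can correspond to several Brassica genes. A whole bud also holds sepals, petals and pistil, and in bulk RNA fewer cells of a type and less RNA per cell cannot be told apart.

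With each gene length a multiple of 3 bp, the fertile library held 1803154 reads and the sterile library 1567647. The fertile total was recovered from 475 genes and the sterile total from only 6. The sequenced tissue could be checked only in part. Markers of late pollen were matched through the deposited locus codes for 5 of 12 codes, which gave 12 genes. Their RPKM summed to 5800 in fertile and 0.463 in sterile buds, with 11 of the 12 at 0 in sterile buds. Of these 12 genes, 4 belong to the same deposited table and were thus chosen for 0 in sterile buds. For the tapetum 1 of 10 codes was matched, Bra003795, with 1200 RPKM in the fertile library and 50.3 RPKM in the sterile library. None of the 3 codes for green tissue was matched, so other bud tissues were not checked. A code could be matched only where the authors had listed the gene as differing, so the difference in these markers was fixed by that choice and is no check of the sterile buds.

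The label was set against the locus codes first. For 5 of the 36 genes another gene of the same table carried the same locus code with pollen words in its description. Bra016337, Bra016338 and Bra016341 share AT1G23580 with Bra035912, whose description names pollen, pollen tube cells and sperm cells. Bra027884 shares AT1G58120 with Bra035462, described in pollen, and Bra024876 shares AT1G70780 with Bra017444, described in sperm cells and pollen tubes. Bra004325 (AT1G68610, PLANT CADMIUM RESISTANCE 11) is described as a target promoter of DUO1, a MYB transcription factor of the male germline. For the former 5 genes, the lack of a pollen word is thus a property of the row of text and not of the Arabidopsis gene it was matched to. The limit reaches further, since 15 of the 36 genes had no description. Of the 21 descriptions, 7 named a plant structure other than pollen and 3 gave only a number of structures, which may include pollen. Where no structure is named, the lack of a pollen word does not show that the gene is unexpressed in pollen.

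All 36 genes were at 0 RPKM in sterile buds. Their levels in fertile buds ran from 8.90 to 1597 RPKM around a median of 87.8 RPKM, against a median of 9.60 RPKM over the 27940 genes. Listed genes at 0 in sterile buds had at least 27 fertile reads, so the choice also left out low fertile levels. The 393 such genes outside this table had a median of 51.9 RPKM. Fertile and sterile buds were thus separated for each of the 36, as the choice of the genes required. The median difference, sterile minus fertile, was -6.47 on the log2(RPKM + 1) scale, beside 0.17 over the 27940 genes. There were 13 genes at 100 RPKM or more, 21 between 10 and 100 RPKM and 2 under 10 RPKM. The 5 highest held 60.4% of the summed RPKM of the 36, and the 36 together held 0.581% of the RPKM summed over all genes in fertile buds. Behind these values stood 29 to 855 reads per gene in fertile buds. In sterile buds 3 reads would have been worth between 0.558 and 10.3 RPKM, depending on gene length, which is the level that a count of 0 still allows. Set against 3 sterile reads, the genes were at least 8.40-fold to at least 248-fold lower in sterile buds, with a median bound of 27.5.

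**Figure D1:**
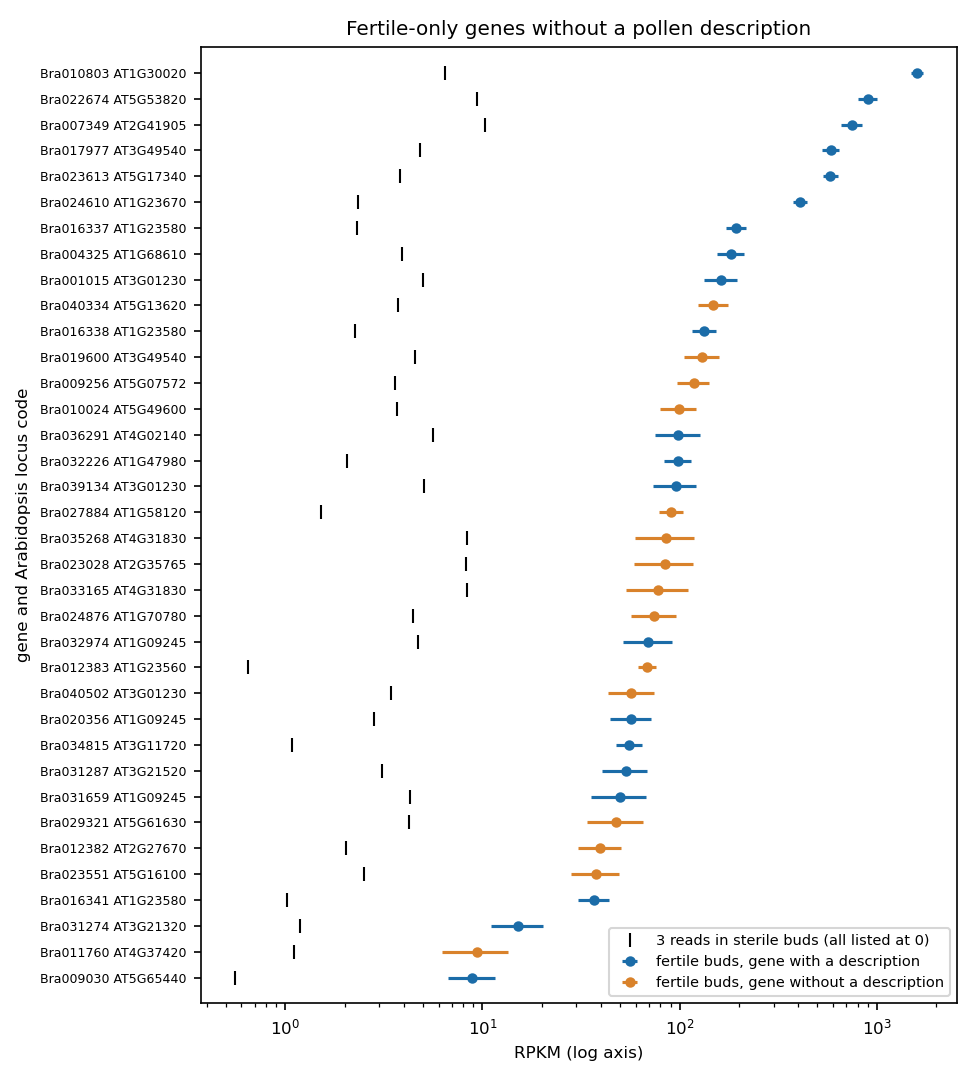
RPKM of the 36 genes in fertile buds on a log axis, ordered by level, with bars for the 95% counting interval; black ticks mark what 3 reads would be worth in the sterile library, where each gene was listed at 0. The lowest gene lies at 8.90 RPKM and the highest at 1597 RPKM. Every point lies to the right of its tick, which was fixed beforehand, since listed genes at 0 in sterile buds had at least 27 fertile reads.

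The 9 highest of the 36 all carried a description. Bra010803 (AT1G30020) had 1597 RPKM in the fertile library and 0 in the sterile library, from 855 and 0 reads, and ranked 56th among all genes of the fertile library. It was at least 248-fold lower in the sterile library, and its 95% counting interval began at 201. Its description lists cauline leaf, cotyledon, flower and guard cell and breaks off with a caret mark. Further tissues may be missing from it, pollen among them, so its place in the set is uncertain, as is that of Bra024610, whose description ends in the same way. Without both, the set had 34 genes with a median of 84.6 RPKM, a highest level of 897 RPKM and a highest bound of 151, and its 5 highest genes held 56.8% of its summed RPKM. Bra022674 (AT5G53820) followed at 897 RPKM from 330 reads and at 0 in sterile buds. It belongs to the late embryogenesis abundant proteins, which accumulate in drying seeds and pollen. Its level was 1.78-fold below that of Bra010803 (counting interval 1.57 to 2.03).

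Bra007349 (AT2G41905) had 745 RPKM in fertile and 0 in sterile buds, and its closest Arabidopsis protein is arabinogalactan protein 23, a short glycoprotein of the cell surface. Bra017977 (AT3G49540) had 584 RPKM in fertile and 0 in sterile buds, from 417 reads, and is described with N-terminal myristoylation, a lipid tail that can anchor a protein to a membrane. Bra023613 (AT5G17340), a putative membrane lipoprotein of the endomembrane system, had 580 RPKM in fertile and 0 in sterile buds. These last 2 genes did not differ in RPKM beyond counting error, with a ratio of 1.01 (counting interval 0.883 to 1.15). In reads, Bra017977 was lower than Bra023613, with a ratio of 0.800 (interval 0.702 to 0.912). The best match of Bra023613 carries DUF1278, a domain that is also found in egg cell-secreted proteins of Arabidopsis. Its description places expression in petal, leaf whorl, sepal and flower.

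DUF220 is a plant domain without an assigned function, and the table names it for AT1G23580. This code was shared by 4 genes, 3 of them without pollen words, and 2 other codes also had 3 genes each. Bra016337 had 194 RPKM, Bra016338 had 133 RPKM and Bra016341 had 36.8 RPKM in fertile buds, and all were at 0 in sterile buds. The copy described in pollen, Bra035912, had 143 RPKM and 0. Bra016337 stood 1.46-fold above Bra016338 (counting interval 1.22 to 1.75) and 5.28-fold above Bra016341 (interval 4.26 to 6.57). The gap to Bra016341 was 2.35-fold in reads (interval 1.90 to 2.92), with 291 and 124 reads, since the length of Bra016341 came to 1869 bp and that of the other copy to 831 bp. How reads shared by near-identical copies were counted is not given in the sources used here, so the split between copies is uncertain.

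Other locus codes in this table lay close to AT1G23580 on Arabidopsis chromosome 1. Bra024610 (AT1G23670) had 409 RPKM from 604 reads in fertile buds and 0 in sterile buds, at least 175-fold lower. Its description names flower and leaf structures and also ends with a caret mark. Bra012383 (AT1G23560), which has no description, had 68.4 RPKM from 365 reads, at a length of 2958 bp, and 0 in sterile buds. The next identifier below it, Bra012382 (AT2G27670), had 39.6 RPKM and 0. Bra012381 beside that one had 86.3 RPKM in fertile and 1.87 in sterile buds. Bra012382, Bra012381 and Bra012383 were named here after their values had been seen.

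The 3 copies of AT3G01230 differed in level. Bra001015 had 162 RPKM from 111 reads, Bra039134 had 95.4 RPKM from 65 reads and Bra040502 had 57.0 RPKM from 57 reads in fertile buds, with 0 in sterile buds for each. The table describes the protein as unknown and, for 2 of the copies, as located in the endomembrane system. Bra001015 was 1.69-fold above Bra039134 (counting interval 1.24 to 2.34) and 2.84-fold above Bra040502 (interval 2.04 to 3.98). Bra039134 and Bra040502 differed 1.67-fold per length (interval 1.16 to 2.43) but not beyond counting error in reads, with a ratio of 1.14 (interval 0.787 to 1.66).

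The 3 copies of AT1G09245 lay closer to each other in RPKM. This code carries the plant self-incompatibility S1 domain, named after secreted proteins of the poppy stigma that arrest incompatible pollen tubes. Bra032974 had 69.3 RPKM, Bra020356 had 56.7 RPKM and Bra031659 had 49.6 RPKM in fertile buds, and all were at 0 in sterile buds. The highest of them exceeded the lowest 1.40-fold, with a counting interval of 0.905 to 2.17, so no difference in RPKM was detectable at this depth. The reads came in another order, with 69 for Bra020356, 51 for Bra032974 and 40 for Bra031659, and their ratios were not computed. Their deposited descriptions give AT1G51250 as the closest Arabidopsis protein, and the gene listed under that code, Bra008396, is described in the male gametophyte and pollen tube.

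Pairs of copies were uneven in some cases and even in others. The second copy of AT3G49540, Bra019600, had 129 RPKM in fertile and 0 in sterile buds. Bra017977 stood 4.51-fold above it (counting interval 3.61 to 5.68). Bra009256 (AT5G07572) had 118 RPKM and 0. It was exceeded 41.6-fold per length (interval 34.4 to 50.7) by Bra005946 with the same code, which had 4894 RPKM and 0. The gap in reads was smaller, with 2462 reads at 279 bp for Bra005946 and 112 reads at 528 bp for Bra009256. Bra035268 and Bra033165 (AT4G31830) had 85.1 and 77.8 RPKM in fertile buds, from 35 and 32 reads, and 0 in sterile buds. Their ratio was 1.09 (interval 0.658 to 1.82). Bra027884 had 90.4 RPKM beside 91.1 RPKM for Bra035462, with a ratio of 1.01 (interval 0.826 to 1.23), and both were at 0 in sterile buds. Bra024876 had 74.5 RPKM and was exceeded 1.58-fold by Bra017444 at 118 RPKM (interval 1.12 to 2.25), and both were at 0 in sterile buds. In all, the 36 genes carried 28 codes, 8 of the codes were shared by at least 1 further gene of the deposited tables, and 20 genes had a code of their own. Copies among genes that the authors had not listed could not be counted, since the files pair no code with them.

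**Figure D2:**
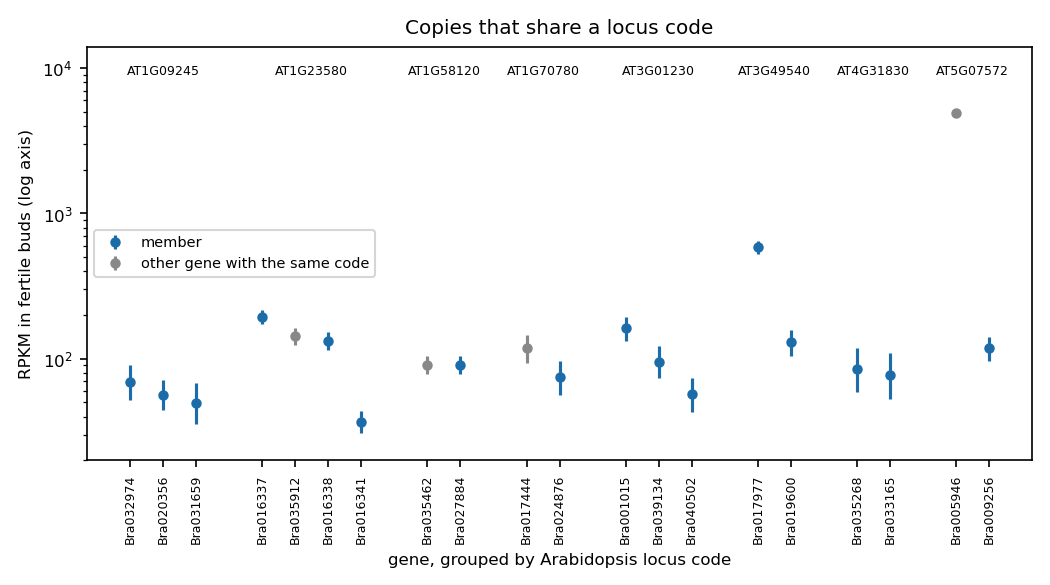
RPKM in fertile buds, on a log axis, of genes that share an Arabidopsis locus code, with bars for the 95% counting interval. Blue points are genes without pollen words and grey points other genes of the same table. The copies of AT1G09245 overlap, while those of AT3G49540 and AT5G07572 are 4.51-fold and 41.6-fold apart in RPKM.

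Among the remaining described genes, Bra004325, whose family of cysteine-rich membrane proteins is named for cadmium resistance, had 183 RPKM in fertile and 0 in sterile buds, from 162 reads. Bra036291 (AT4G02140), placed in the mitochondrion and in 13 plant structures, had 98.2 RPKM and 0. Bra032226 (AT1G47980), placed in the endomembrane system and in 6 plant structures, had 97.8 RPKM and 0. Both descriptions name the mature embryo stage, which 2 of the other 45 described genes of the table also did. Bra034815 (AT3G11720), described in guard cells alone, had 55.6 RPKM from 177 reads and 0. Bra031287 (AT3G21520) had 53.2 RPKM and 0, and is described as a protein of membrane fission and fusion in senescing leaves and in root vacuoles.

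The lowest described genes included the one with the largest number of plant structures, which its description does not name. Bra009030 (AT5G65440), described in 22 plant structures and 13 growth stages, had 8.90 RPKM from 55 reads in the fertile library and 0 in the sterile library. Its length came to 3429 bp, and its bound against 3 sterile reads was 15.9-fold. Bra031274 (AT3G21320), whose best match is the clock protein ELF3, had 15.1 RPKM and 0, from 44 reads, with a bound of 12.8-fold.

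Plant structures other than pollen were named in 7 of the 21 descriptions, and 3 further ones gave only a number of structures. A leaf or leaf-like structure was named in 6, the flower in 5, petal and sepal in 3, guard cells in 2, the root in 1 and the cotyledon in 1, and 0 named stamen, carpel or embryo as a tissue. Anthesis and the stage of petal expansion were each named in 7. In the other 45 described genes of the table, 15 named a leaf structure, 17 the flower, 14 the stamen, 14 the carpel, 10 the embryo and 35 anthesis. The descriptions follow several templates, and those that list stamen or carpel often list pollen as well, so the rule that left out pollen words also removed them. No comparison is drawn from these numbers. A location in the endomembrane system, the route of secreted and membrane proteins, was given for 7 of 21 and for 21 of the other 45.

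The 15 genes without a description had a lower median and a narrower range than the described ones. They lay between 9.36 and 148 RPKM with a median of 77.8 RPKM, against 8.90 to 1597 RPKM with a median of 98.2 RPKM for the 21. Of the 15, 3 reached 100 RPKM, against 10 of the 21. Bra040334 (AT5G13620) was the highest of them at 148 RPKM from 137 reads, with 0 in sterile buds. Bra010024 (AT5G49600) had 98.9 RPKM and 0. The 6 undescribed genes that were neither among the 5 highest nor shared a code ranged from 9.36 to 84.0 RPKM, with 29 to 365 reads, and were at 0 in sterile buds.

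The 44 genes with pollen words in the same table spanned 6.42 to 3049 RPKM in fertile buds, and their median was 95.5 RPKM beside 87.8 RPKM for the 36. The median number of reads was 91 for them and 95 for the 36. Gene length had a median of 514.5 bp over the 36, of 637.5 bp over the 44 and of 1032 bp over the 393 genes at 0 in sterile buds that the authors listed as differing but not in this table. Of the 36, 21 were shorter than 600 bp, against 22 of the 44 and 120 of the 393. Lengths rest on the step of 3 bp, and their ratios do not.

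**Figure D3:**
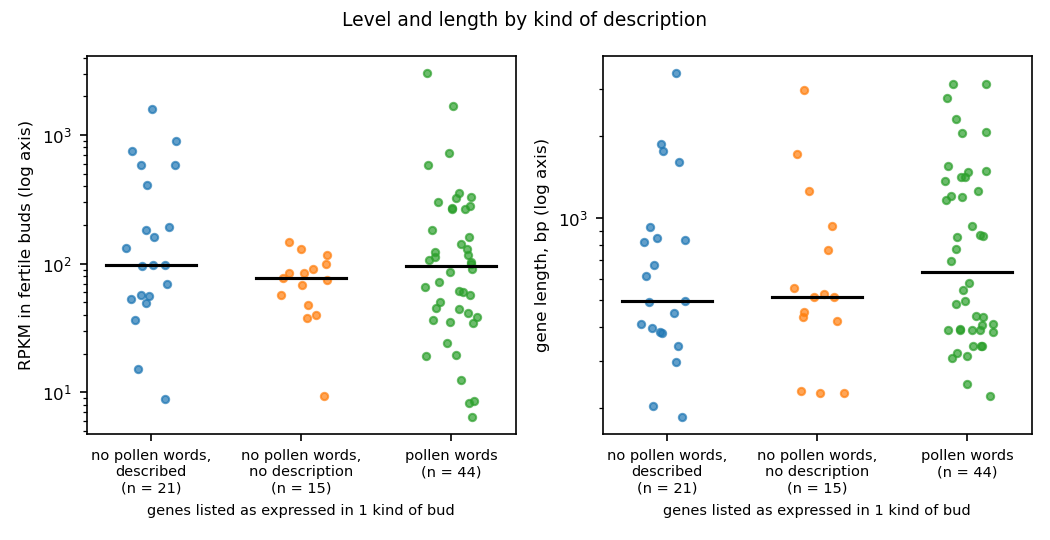
RPKM in fertile buds (left) and gene length in bp (right), on log axes, for described genes without pollen words (n = 21), undescribed genes (n = 15) and genes with pollen words (n = 44) of the same table. Points are genes and lines are medians, at 98.2, 77.8 and 95.5 RPKM.

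Some of the genes had neighbouring identifiers with the same pattern. Identifiers are taken here only as an order of names, since coordinates were not used. Within 2 identifiers of the 36 genes lay 133 other genes, of which 6 (4.51%) had at least 10 RPKM in fertile and 0 in sterile buds. Of these 6, 5 lay near the 3 copies of the single code AT3G01230 and the other one beside Bra009256. This held for 635 of all 41019 genes (1.55%), for 8 of 161 neighbours of the pollen-described genes (4.97%) and for 23 of 1452 neighbours of the listed genes at 0 outside this table (1.58%). The shares for the 36 and for the pollen-described genes overlap and are not independent. Bra001015, Bra039134 and Bra040502 count as neighbours of pollen-described genes, as do Bra001011 and Bra040504 from the same runs. Of the 133 neighbours, 73 were above 0 in sterile buds.

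The 3 copies of AT3G01230 each lay within 2 identifiers of a copy of AT3G01240, described with the mature pollen stage. Bra039133 and Bra040503 were the next identifiers to their AT3G01230 copies, while Bra001014, at 0 in both libraries, lay between Bra001013 and Bra001015. Bra001013, Bra039133 and Bra040503 (AT3G01240) had 271, 299 and 321 RPKM in fertile and 0 in sterile buds. Each was higher than the AT3G01230 copy near it, which had 162, 95.4 and 57.0 RPKM for Bra001015, Bra039134 and Bra040502. At 2 identifiers from Bra039134 there was also Bra039132 (AT3G01250) at 34.4 RPKM and 0. Pectate lyase genes (AT3G01270) lay at 4 identifiers from Bra001015 and from Bra040502, Bra001011 at 55.6 RPKM and Bra040506 at 123 RPKM, both with 0 in sterile buds. The other genes nearby were mixed. Bra039131 had an RPKM of 78.6 in fertile and 93.6 in sterile buds, Bra040504 had 16.4 and 0, and Bra001016 and Bra040501 were at 0 in both libraries.

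Bra009256 followed the more abundant pair Bra009254 and Bra009255. The RPKM of Bra009254 was 9572 in fertile and 2.09 in sterile buds, and Bra009255 had 4995 RPKM and 0, while Bra009257 on the other side had 0.748 RPKM and 0. Bra016337 and Bra016338 lay side by side, and Bra016336 next to them had an RPKM of 48.0 in fertile and 49.7 in sterile buds.

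Bra011760 had a neighbour that went the other way, and was named here after its value had been seen. Bra011760 (AT4G37420) had 9.36 RPKM from 29 reads in fertile buds and 0 in sterile buds. Its bound against 3 sterile reads was 8.40-fold, with a counting interval, taken against 0 reads, that began at 6.41. The next identifier, Bra011761 (AT4G37430), a cytochrome P450 gene, had an RPKM of 1.85 in fertile and 108 in sterile buds. For Bra011762 beyond it the RPKM was 15.0 and 20.6.

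**Figure D4:**
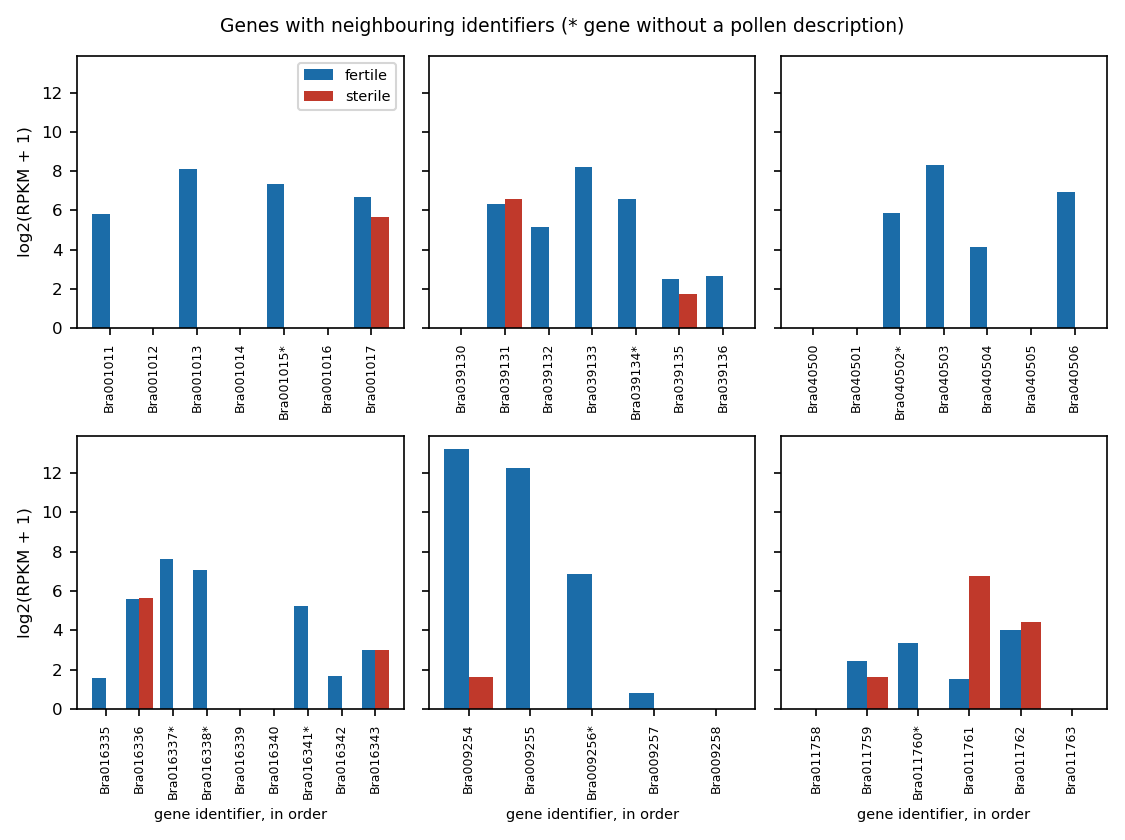
Level as log2(RPKM + 1) in fertile (blue) and sterile (red) buds for 6 runs of neighbouring identifiers, with an asterisk on genes without a pollen description. In the upper row the AT3G01230 copies Bra001015, Bra039134 and Bra040502 lie near other genes at 0 in sterile buds, and in the last panel Bra011761 is at 108 RPKM in sterile buds beside Bra011760 at 0.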

How the data were processed

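The authors deposited expression as RPKM for 1 library each of fertile and sterile buds, per the file headers. The submitters' processing notes name TopHat. Aligner version, genome build, annotation and the tool that counted reads are not given in the sources used here. Per the file headers, a second table of the authors gives p-values, q-values and log2 fold changes, coded fertile over sterile. The test is not named. From the deposited pathway table, whose p-values were not used, only locus codes were taken.

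Genes were the 41019 rows with Bra identifiers. For 475 listed genes at 0 in sterile buds the authors' fold was proportional to reads, which gave whole reads within 5.69e-10 against a tolerance of 0.0001. The sterile library was recovered in the same way from 6 listed genes at 0 in fertile buds, within 8.73e-11. Totals and lengths follow from RPKM with a length step of 3 bp, so 1 bp steps would raise the totals 3 times. The recovery was run on simulated data with lengths in steps of 3 bp and counts whose common unit was 1 read. It could therefore not test whether the real data meet these 2 assumptions. Bounds were set against 3 reads in the sterile library, while the counting intervals of these folds were taken against its 0 reads. Counting intervals are 95% Clopper-Pearson intervals for ratios and exact Poisson intervals for levels, and both cover counting error only. Genes with RPKM of at least 1 in either library formed the background, and differences used a pseudocount of 1. Every described gene was named, and of the others the 5 highest and those sharing a code. The genes and lists were chosen with earlier results of these data known. RefSeq matched 0 of the 36 genes, and no sequence is shown. Python 3.11.15, numpy 2.4.6, pandas 2.3.3 and scipy 1.17.1 were used. Alternatives were other pseudocounts, scalings, filters, word lists and windows of identifiers.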

Additional observations from a re-analysis of the deposited data

How the results depend on the processing

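No paired analysis was possible because each group held 1 library. With described genes alone the set had 21 genes in place of 36. The median difference, sterile minus fertile, moved with the pseudocount, from -6.47 to -9.78 with 0.1 and to -7.46 with 0.5, because the sterile values are 0. The 2 scalings, which shift sterile log2 values by -0.20 and -0.23, left it at -6.47, which was fixed beforehand, since scaling cannot move a 0. Without the filter on low values, 1.65% of all genes were at 0 in sterile buds at or above the lowest of the 36, and 2.21% were listed by the authors as higher in fertile buds. In an alternative chosen after seeing the data, the bound of Bra010803 was 285 with the median ratio. The share of neighbours high in fertile and at 0 in sterile buds was 4.48% within 1 and 3.03% within 5 identifiers, also chosen after seeing the data. Without the 2 genes whose descriptions end in a caret mark, also chosen after seeing the data, the highest bound was 151. For a count of 0 the limit was set at 3 reads, which comes to the highest RPKM in the shortest genes.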
